A study of Talpa occidentalis with 2 samples.

Results

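The deposited gene annotation of the Iberian mole, Talpa occidentalis, carries 4 models named UBD in a row, followed by GABBR1 and MOG, and these 3 symbols are described here. Every gene, transcript and coding exon record of build talOcc3 whose name, without its copy suffix, was UBD, GABBR1 or MOG was taken. This gave 7 of 23336 gene models, 4 of UBD, 2 of GABBR1 and 1 of MOG, with 38 coding exons. The members were chosen by the number, spacing and target match of the UBD models as seen in earlier results of this annotation, so these values are given as a description, with no test. The series itself holds 2 libraries of circular chromosome conformation capture, 1 from forebrain and 1 from hindlimb, each from wild-type embryos of embryonic day 15 and each with the FGF9 transcription start as viewpoint. The labels do not say whether embryos were pooled. Neither tissue has a column in the annotation, contact values were not analysed here, and the depth of the libraries is unknown. All values below belong to 1 assembled genome without replicates, and their precision is that of the assembly and its gene models.

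UBD encodes FAT10, a ubiquitin-like protein made of a pair of ubiquitin-like domains joined by a short linker. It is attached through a C-terminal diglycine to other proteins, which are then degraded by the proteasome, and it is induced by interferon gamma and tumour necrosis factor in immune and epithelial cells. In human the gene lies in the extended class I part of the major histocompatibility complex (MHC), among olfactory receptor genes and close to GABBR1, which encodes a subunit of the metabotropic GABA-B receptor, and MOG, which encodes a glycoprotein on the outer surface of central nervous system myelin. Olfactory receptor genes, whose names begin with OR, are typically intronless in their coding part.

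The UBD models formed an array of 54.1 kb between positions 3915254 and 3969383 of scaffold 48, all read from the plus strand. In the direction of transcription the order was UBD_copy4, UBD_copy2, UBD_copy3 and UBD, so the model without a suffix came last and lay nearest to GABBR1. UBD_copy4 lay at 3915254 to 3924938. UBD_copy2 lay at 3930541 to 3938103. UBD_copy3 lay at 3946638 to 3952348, and UBD at 3966615 to 3969383. All 4 models were on 1 strand, and for all 7 members the gene and transcript records had equal ends, as for 98.2% of all models.

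The spacing of the models widened along the array. From start to start the successive models were 15287, 16097 and 19977 bases apart. Between the edges lay 5.60 kb from UBD_copy4 to UBD_copy2, 8.53 kb from UBD_copy2 to UBD_copy3 and 14.3 kb from UBD_copy3 to UBD. Measured between the starts of the last coding exons, which does not depend on where a model places its first exon, the distances were 13.2, 14.2 and 17.1 kb, and the longest was 1.29 times the shortest. The UBD models covered 47.5% of the array, and their 2199 coding bases made up 4.06% of it.

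**Figure D1:**
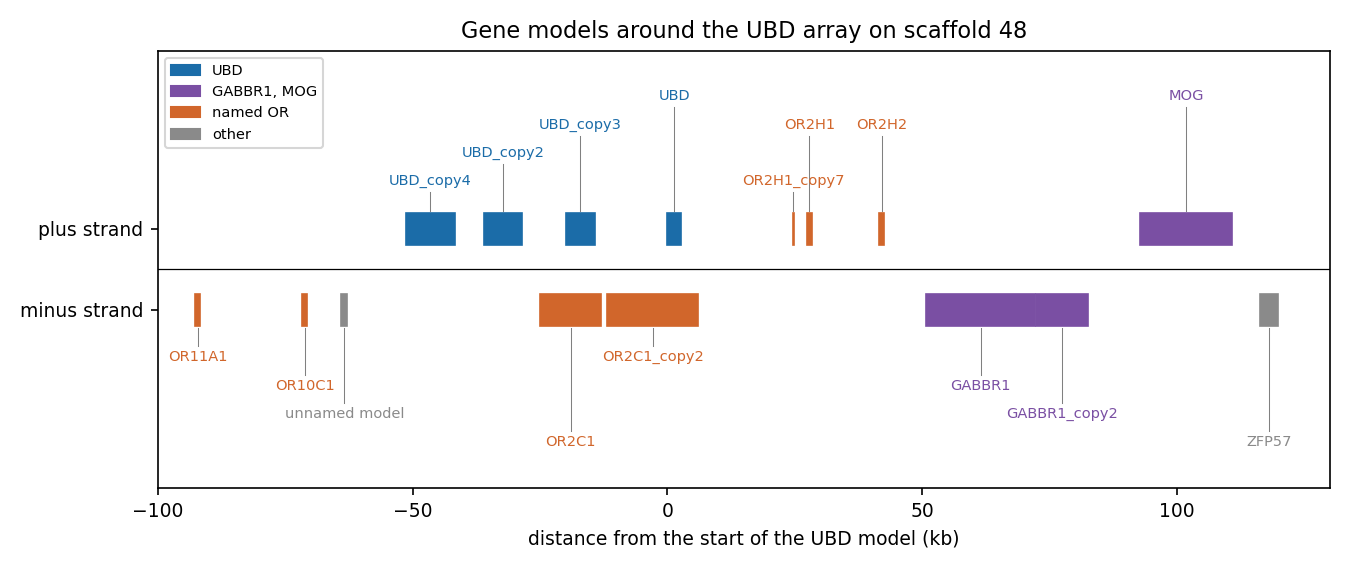
Gene models around the UBD array on scaffold 48, plus strand above and minus strand below, by distance in kb from the start of the UBD model. The 4 UBD models (blue) lie side by side on the plus strand, with a pair of OR2C1 models on the other strand over the last 2, and the GABBR1 and MOG models (purple) follow beyond OR2H1 and OR2H2.

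The models shared a layout in which a long last coding exon held nearly all of the match to the target, the UBD transcript of another annotation to which the authors aligned each model. UBD itself, built by EVM (a program that combines lines of evidence into 1 model), had a first coding exon of 27 bases and a second of 471, which together made 166 codons (498 bases). Its whole coding part matched the target, from target base 225 to 722. The intron between its exons was 2.27 kb long, the shortest of the array.

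UBD_copy2, also from EVM, was the only UBD model with 3 coding exons, of 168, 36 and 471 bases. Its 675 coding bases made 225 codons, the most of the 4. The first 173 coding bases, which are the whole first exon and 5 bases of the second, lay outside the target match, which ran from target base 221 to 722. The last exon was as long as that of UBD and began at the same target base, 252. The exon before it held 31 matched bases, up to that same base, where the first exon of UBD held 27. The introns were 3.34 and 3.55 kb long.

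UBD_copy3 and UBD_copy4 came from the source named ALN and were built from the same protein, by the identifiers of their transcripts. Each had 2 coding exons and 513 coding bases, or 171 codons. In both, the first 45 coding bases had no match to the target, and the match began at target base 252, where the last exons of UBD and UBD_copy2 begin. These 45 bases were divided differently between the exons. UBD_copy3 had a first exon of 25 bases and 20 unmatched bases at the start of a last exon of 488, and UBD_copy4 a first exon of 17 bases and 28 unmatched bases at the start of a last exon of 496. Thus in neither model did the first coding exon carry any matched base. The match ended at target base 718 in UBD_copy3 and 719 in UBD_copy4, short of the 722 of both EVM models. Whether this difference in start and end comes from the program that built the models was not tested.

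**Figure D2:**
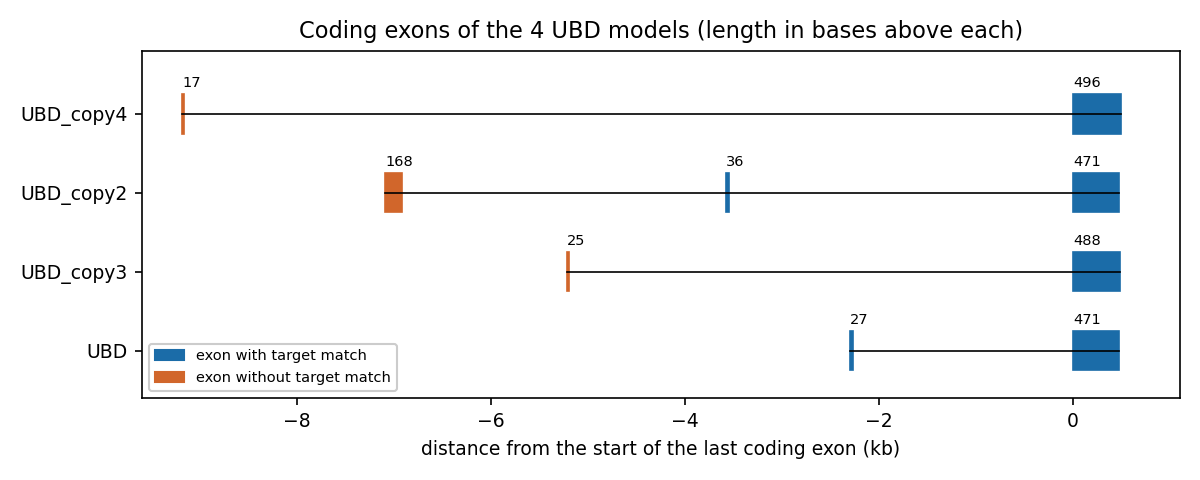
Coding exons of the 4 UBD models in transcription order from left to right, by distance in kb from the start of the last coding exon, with the exon length in bases above each. The last exons measure 471 to 496 bases in all 4, whereas the distance back to the first coding exon differs from model to model.

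Introns differed more between the models than coding length did. The single intron measured 9.17 kb in UBD_copy4, 5.20 kb in UBD_copy3 and 2.27 kb in UBD. In UBD_copy4 and UBD_copy3 its length depends on the place of a first exon that held no matched base. Over all 157050 introns between coding exons of the annotation, the median was 1.12 kb. As long as or longer than the shortest UBD intron were 29.9% of them, and 6.86% were as long as or longer than that of UBD_copy4. The first coding exons of the models with 2 exons, 17, 25 and 27 bases, were short, since 1756 of 17565 multi-exon models began with a coding exon of 27 bases or fewer and the median was 126 bases.

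The matched part was read in the same frame in all 4 models. The offset between model and target left the same remainder when divided by 3, each coding length was a whole number of codons, and the match was equally long in model and target, with 468 bases in UBD_copy4, 502 in UBD_copy2, 467 in UBD_copy3 and 498 in UBD. Set against the longest match, that of UBD_copy2, the others covered 93.0% (UBD_copy3), 93.2% (UBD_copy4) and 99.2% (UBD). All 4 therefore passed the limit of 90% used here for near full coverage, and no UBD model lay below it. The deposited score, which the authors gave to each match in a way not given in the sources used here, was 505 for UBD, 489 for UBD_copy2, 434 for UBD_copy3 and 430 for UBD_copy4. As a share of the best, these were 96.8% for UBD_copy2, 85.9% for UBD_copy3 and 85.1% for UBD_copy4. Per matched base, the score was 1.01 in UBD, 0.974 in UBD_copy2, 0.929 in UBD_copy3 and 0.919 in UBD_copy4. Both ALN models thus scored below both EVM models by either measure. No sequence of these models was used here, so their identity in bases or residues is not given.

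**Figure D3:**
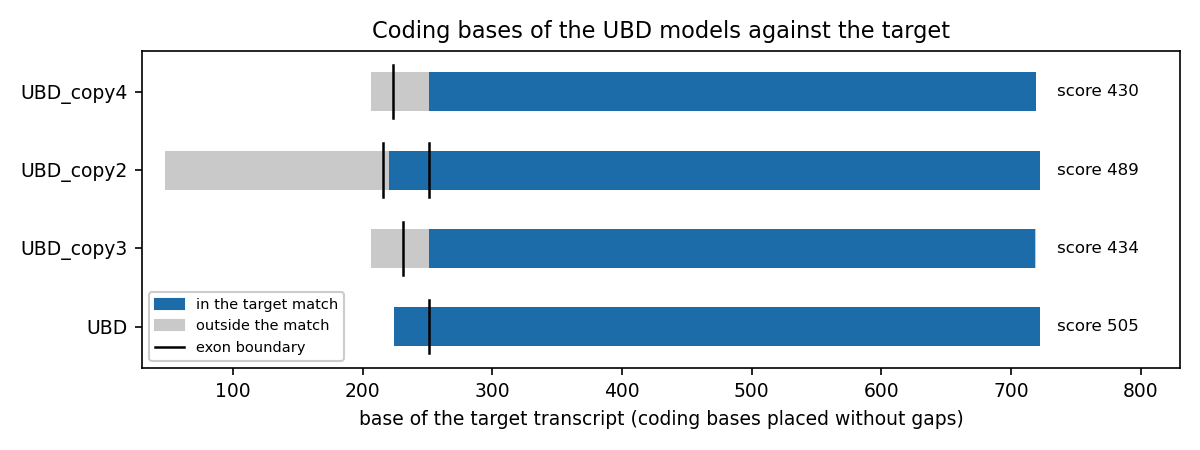
Coding bases of the UBD models placed along the target transcript in bases, with the matched part in blue, coding bases outside the match in grey and exon boundaries as black lines. The exon boundary of UBD and the second boundary of UBD_copy2 both lie at target base 252, where the matches of UBD_copy3 and UBD_copy4 begin.

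Models named for an olfactory receptor overlapped the array on the opposite strand. OR2C1, a model of 7 coding exons on the minus strand at 3941666 to 3953558, enclosed UBD_copy3 entirely, and 163 of its coding bases, its whole second exon, lay within the last exon of UBD_copy3. OR2C1_copy2, at 3954783 to 3972717, enclosed UBD in an intron of 16.2 kb and shared 0 coding bases with it. Thus 2 of the 4 UBD models lay wholly inside a model of the other strand, as did 676 of all 23336 models (2.90%). Only UBD_copy3 shared coding bases with such a model, as did 302 of all models (1.29%). Both OR2C1 models were weak matches to their own target. Their scores were 126 and 124, and their matches of 197 and 169 bases amounted to 14.5% and 9.70% of their coding length. OR2C1 and OR2C1_copy2 had target ranges that overlap, 779 to 975 and 799 to 967. Whether both matched the same transcript of the receptor is not given here. UBD_copy4 and UBD_copy2 were overlapped by no model of the other strand, and no other model lay wholly between any successive UBD models.

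Arrays of this kind were rare among symbols of the annotation. A tandem was a row of models of 1 symbol on 1 scaffold and strand, each with over 1 coding exon and with near full coverage, whose successive starts lay within 100 kb. With 4 models in such a row, UBD was 1 of 4 among 16075 symbols (0.0249%) with as many or more (1 of 2, or 0.0124%, when models under 80% of the best score of their symbol were dropped), and 1 of 4 among the 350 symbols that had at least 4 models at all (1.14%). The others were OR7A10 with 11, OR1J4 with 7 and OR6C2 with 4, all named for olfactory receptors. Each of these had further models not counted in its row, 41, 14 and 34 models in all, whereas the 4 in the row were all that UBD had. Where the further models lay is not given here. The rows of OR7A10, OR1J4 and OR6C2 spanned 271, 157 and 79.5 kb, and their weakest models scored 68.1%, 70.9% and 51.1% of the best, against 85.1% for UBD. UBD_copy3 and UBD_copy4 passed as multi-exon only through first exons of 25 and 17 bases that held no matched base. Because UBD was picked for its tandem, the shares above describe the choice and support nothing. Just below, 3 symbols had a row of 3, namely CYP4A11, GSDMC and OR5P3.

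Other ubiquitin-like modifiers had several models too, many of them with 1 coding exon. In a list of 26 ubiquitin-like symbols, UBD included, 21 had a model and 11 had at least 2 (52.4%, against 14.6% of all symbols). Of the 50 models of these 21 symbols, 27 had 1 coding exon. RPS27A, which encodes ubiquitin fused to a ribosomal protein, was annotated 7 times, each on a scaffold of its own, and 6 of these models had 1 coding exon. UBB, which encodes a chain of ubiquitin repeats, had 2 models, both with 1 coding exon. ISG15, like UBD an interferon-induced modifier with a pair of ubiquitin-like domains, had 1 model of 1 coding exon. NEDD8, the activator of cullin ligases, and UFM1 had 3 models each, with 2 of 1 coding exon in both.

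At least 2 models of over 1 coding exon were found for 3 of the 21 symbols (14.3%, against 8.77% of all symbols), UBD and the small ubiquitin-like modifier SUMO2 among them. In UBD_copy3 and UBD_copy4, though, only the last exon held matched bases. The 3 multi-exon models of SUMO2 lay on scaffolds 28, 18 and 16 and scored 67.6%, 36.6% and 21.9% of the best model of that symbol. The best score of SUMO2 belonged to a model with 1 coding exon. Of the 21, UBD alone had more than 1 model on any scaffold within the tandem distance. These counts describe lists written from general knowledge, and no test was made of them.

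**Figure D4:**
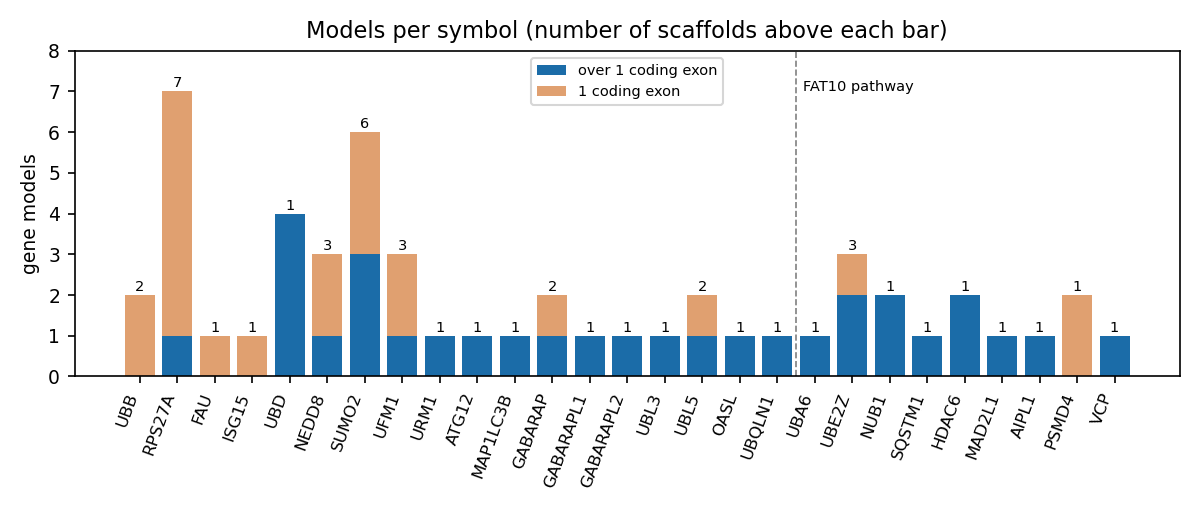
Gene models per symbol for the symbols shown from the ubiquitin-like list and, right of the dashed line, the FAT10 pathway list, split by whether the model has 1 coding exon or more, with the number of scaffolds above each bar. UBD has 4 models, all with over 1 coding exon and all on 1 scaffold. In UBD_copy3 and UBD_copy4 only the last exon holds matched bases.

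Of the genes that act with FAT10, 5 of 9 had 1 model. All 9 listed symbols had a model. UBA6, the enzyme that activates both ubiquitin and FAT10, had 1 multi-exon model. SQSTM1, an autophagy receptor, AIPL1, a photoreceptor chaperone, MAD2L1, a spindle checkpoint protein, and VCP, an unfolding ATPase, also had 1 each. Of the 9, 4 had at least 2 models (44.4%, against 14.6% of all symbols). In 3 of these, at least 2 models had over 1 coding exon (33.3% of the 9, against 8.77% of all symbols). UBE2Z, the conjugating enzyme that takes FAT10 from UBA6, had a model of 3 coding exons on scaffold 400 and UBE2Z_copy2 of 6 on scaffold 28 with 97.5% of the best score, beside 1 single-exon model. NUB1, which binds FAT10 and speeds its degradation, had a second model on the opposite strand with 24.1% of the best score. HDAC6, a deacetylase that carries FAT10 conjugates to aggresomes, had models of 16 and 12 coding exons on the minus strand of scaffold 24. By position the first ended at 2614428 and the second began at 2614441. The second scored 84.0% of the first. Whether they are 2 copies or parts of 1 gene was not tested. They matched different transcripts of the target gene, so their target positions cannot be set side by side. The last, PSMD4, a ubiquitin receptor of the proteasome, had 2 single-exon models. None of the 9 had a tandem of near full multi-exon models. With coverage and exon number left aside, 2 of the 9, HDAC6 and PSMD4, each had a row of 2 models within the tandem distance.

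Towards lower positions the array was bordered by olfactory receptors. The nearest model, an unnamed exonerate model of 2 coding exons, ended 11.5 kb before UBD_copy4. OR10C1 followed at 19.3 kb and OR11A1 at 40.3 kb, both on the minus strand, then OR12D2_copy2, OR12D2_copy3, OR12D1 and OR12D2 on the plus strand between 60.4 and 98.8 kb, and OR2W1, OR5V1 and OR14J1_copy2 out to 248 kb. Of these 10 models, 9 were named for olfactory receptors and 8 had 1 coding exon. OR12D2_copy2 and OR12D2_copy3 scored 99.4% and 93.9% of OR12D2, so this stretch holds a second row of similar models, here with 1 coding exon each. OR14J1_copy2 scored 38.3% of the best of its symbol.

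Towards higher positions came 3 more receptor models and then the other members. OR2H1_copy7, a fragment of 90 coding bases with 9.61% of the best score, lay 21.9 kb beyond UBD, OR2H1 at 24.6 kb and OR2H2 at 38.8 kb, all on the plus strand with 1 coding exon. These 3 were the only models wholly between UBD and GABBR1, whose edges were 48.1 kb apart. Further on followed MOG, the imprinting regulator ZFP57, ZNRD1ASP, a MAP2K4_copy2 model with 55.2% of the best score of its symbol, and ZNRD1, a subunit of RNA polymerase I. Of the 10 nearest models on this side, 7 had over 1 coding exon. Within 0.5 Mb of the middle of the array there were 43 other models, of which 22 (51.2%) carried an OR name, against 3.78% of all models. Of these 22, 17 started below the middle of the array and 5 above it.

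GABBR1 was annotated as 2 models in a row on the minus strand. The model without a suffix, at 4017444 to 4038749, had 18 coding exons and 2535 coding bases, or 845 codons, and matched its target over its whole coding length with a score of 3739. GABBR1_copy2, at 4038923 to 4049256, lay 173 bases away on the upstream side of GABBR1. It had 7 coding exons and 1782 coding bases, of which 475 (26.7%) were matched, and its score was 772, 20.6% of the best. Its first 4 coding exons held no matched base. The 2 models matched different transcripts of the target gene, from base 438 to 2972 in the first and from 308 to 782 in the second, so their target positions cannot be set side by side. Together they spanned 31.8 kb. RefSeq, in its gene table for the mole build MPIMG_talOcc4v2.1, had 1 entry with the symbol GABBR1. The GABBR1 gene is known for an alternative promoter, by which its longer isoform carries additional N-terminal sushi domains.

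MOG lay on the plus strand at 4059330 to 4077474, 10.1 kb beyond GABBR1_copy2 and 89.9 kb beyond UBD, with 0 models between it and GABBR1_copy2. It had 4 coding exons, measuring 232, 99, 348 and 125 bases, and thus 268 codons (804 bases). Of these, 474 were matched to its target. The first 320 coding bases, the first exon and 88 bases of the second, were outside the match, which covered the third exon, of 348 bases, in full. Its first intron, 10.7 kb long, was the longest of all members. GABBR1_copy2 and MOG were transcribed away from each other. From the end of UBD_copy4 to the start of MOG there were 134 kb.

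Gene order around the members was then set against a list of 83 symbols in their human order, from PRSS16 to DDX39B, written from general knowledge. Neighbours in the list were called kept if they shared a scaffold, were at most 2 Mb apart and had fewer than 5 other listed genes in between. Of the 83 symbols 64 had a model, and 54 of the 63 pairs (85.7%) were kept. UBD, GABBR1 and MOG lay in an unbroken run of 11 listed genes from OR14J1 to ZFP57, which rose along scaffold 48 from 3666102 to 4086459. For OR14J1 and OR2H1 the placed models were OR14J1_copy2 and the fragment OR2H1_copy7, by the rule on shortest distances. OR2H1 itself also lay beyond UBD. Within it, 1 pair was turned. UBD came before OR2H1 in the mole, between OR10C1 and OR2H1, whereas the list has it after OR2H1, beside OR2H2. MAS1L, which stands next to UBD in the list, had no model under that name. The same was true of TRIM40, HLA-E and HLA-G among others, 19 symbols in all.

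On both sides the run with UBD ended at a pair that was not kept. OR2J3 and OR14J1 were 3.62 Mb apart on scaffold 48 with 14 listed genes between them. The 15 listed genes from OR2B2 to OR2J3 lay at 41262 to 758911, mainly in falling order, and so were turned against the run with UBD. OR2W1 was placed there, at 163354 to 164316. Another OR2W1 model lay at 3744156 to 3786771, within the run with UBD. Between these runs lay TBC1D7, PHACTR1, EDN1, which encodes endothelin, HIVEP1, ADTRP, TMEM170B, NEDD9 and SMIM13, genes that lie outside the MHC in human, nearer to the end of the short arm of chromosome 6. They are named because their positions were seen. From TBC1D7 to SMIM13 there were 9 models over 2.29 Mb, the remaining 1 being HLA-C_copy2. SMIM13 ended 545 kb before UBD_copy4, with 20 models in between.

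At the other end, ZFP57 was followed by ZNRD1ASP, MAP2K4_copy2 and ZNRD1, with 35.7 kb between the edges of ZFP57 and ZNRD1. HLA-F and HLA-G, class I antigen presentation genes that stand between ZFP57 and ZNRD1 in human, had no model there. None of the 62 HLA-named models lay between GABBR1 and TRIM26. Of the 3 on scaffold 48, HLA-C_copy2 was the one in the stretch from TBC1D7 to SMIM13. ZNRD1 to TRIM26, 7 listed genes, formed a further rising run at 4122206 to 4338012, so apart from the class I genes the listed order went on from MOG to TRIM26. The TRIM26 model that ended this run was short, with 261 coding bases in 3 exons.

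**Figure D5:**
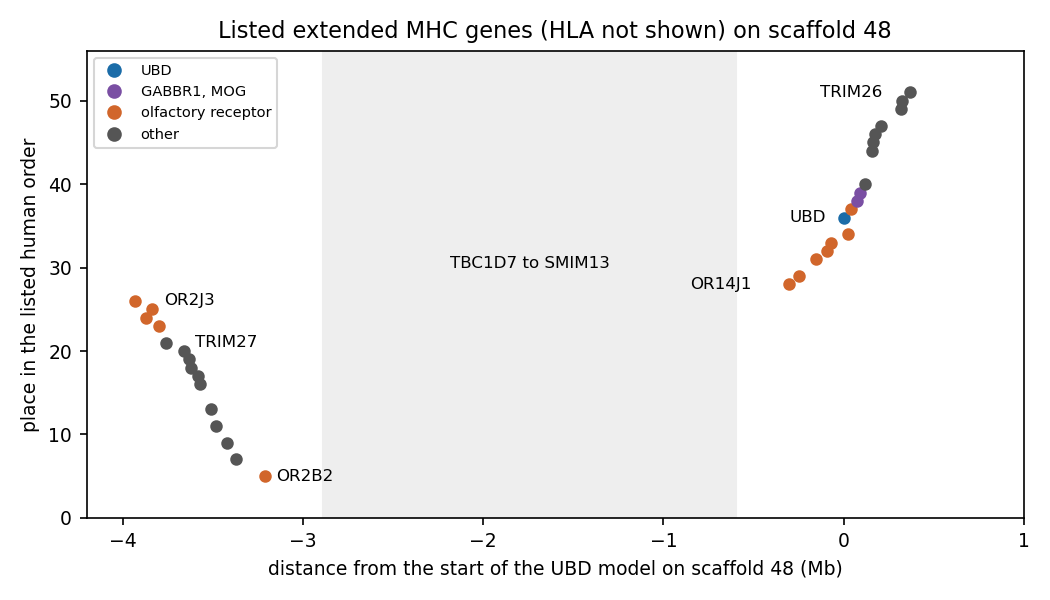
Place in the listed human order against the distance in Mb from the start of the UBD model, for listed genes other than HLA genes placed on scaffold 48; the grey band marks the stretch from TBC1D7 to SMIM13. Points rise from OR14J1 through UBD, GABBR1 and MOG to TRIM26 and mainly fall from OR2B2 to OR2J3 on the far side of the band.

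The remaining pairs that were not kept held no member. ZNF184 and OR2B2 lay on scaffolds 47 and 48, TRIM26 and TRIM39 on 48 and 58, and MICB and DDX39B on 58 and 59. An HLA gene was part of 5 pairs, among them ZFP57 and HLA-F, POU5F1 and HLA-C, and HLA-B and MICA. Of the 9 pairs, 7 lay on different scaffolds. Beyond ZFP57, scaffold 48 went on with ZNRD1 to TRIM26, and beyond POU5F1, scaffold 58 held MICA and MICB. With HLA genes left out of the list, the pairs still on different scaffolds were ZNF184 and OR2B2, TRIM26 and TRIM39, and MICB and DDX39B. Whether the assembled sequence ends at these was not tested.

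The RefSeq table of the later build gave a second view of the order. It held 31603 genes and none with the symbol UBD, so the array could not be placed in it. GABBR1, MOG and ZFP57 followed each other there with 0 genes between, as in the deposited order. Between NEDD9 and GABBR1 it listed 48 genes, of which 38 were protein-coding and 9 pseudogenes, and none had a symbol. Which of these correspond to the UBD models is not known from names. TBC1D7, PHACTR1, EDN1, HIVEP1, ADTRP, TMEM170B and NEDD9 came in the same order in RefSeq, on the same side of GABBR1. TRIM27 and GABBR1, a pair only among the listed symbols found in RefSeq, were not kept there. They were over 2 Mb apart, with 0 listed genes between.

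The builds differed beyond TBC1D7. In RefSeq, 20 named protein-coding genes lay between TRIM27 and TBC1D7, from DUSP22 to FAM217A, and none of them had a deposited model on scaffold 48. Of the 16 with 1 deposited model, 9 lay on scaffold 47 and all the others on scaffold 49. The run of listed genes with TRIM27 rose in RefSeq in the same direction as GABBR1 to TRIM26, whereas it was turned against the UBD run on the deposited scaffold. Which build is right there was not tested. DUSP22 and FAM217A are named after their positions were seen.

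The array lay in a gene-rich stretch. Within 1 Mb of its middle, 51 other models started, against a median of 25 for all genes, and 77.4% of all genes had as few or fewer. The last annotated base of the scaffold lay 535 kb beyond the array, so the outer part of this window held no annotated model on that side; the length of the scaffold was not used here. In a window of 0.5 Mb, which ends before that base, there were 43 starts against a median of 14, and 91.1% of all genes had as few or fewer.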

How the data were processed

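Per the file's own columns, the authors deposited gene models of build talOcc3 made by EVM, exonerate or a source named ALN, each with 1 transcript, its coding exons, its match to a target transcript and a score. Positions are first and last bases counted from 1. No source used here defines the deposited score, and it was compared only among models of 1 symbol. The submitters' processing notes name BWA, and contact values of the 2 libraries were not analysed here.

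Symbols were model names without copy suffixes. Target coverage was the part of the longest match of a symbol that a model's match overlaps, with 90% as near full, and a tandem joined successive starts within 100 kb. Where a listed symbol had several models, those giving the least summed distance between listed neighbours were used. RefSeq genes were matched by symbol and ordered by start, and none of their positions are printed. The members, the gene lists and the rules were chosen with earlier results of these data known.

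Named are the members, the 10 nearest models on each side, genes beside pairs that were not kept, list symbols with at least 2 multi-exon models and symbols with as large a tandem. Other genes were chosen after their values were seen. Routines were written in Python 3.11.15 and tested on simulated data. No sample comparison or significance test was made. Some listed genes are counted but not reported singly here.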

Additional observations from a re-analysis of the deposited data

How the results depend on the processing

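Of 24 alternatives, 21 left their result within 1.5 times its value or, for a share, within its 95% Wilson interval, and 3 moved it. With near full coverage set at 95%, 2 UBD models passed in place of 4. Counting only models with more than 1 coding exon left 0 models between UBD and GABBR1 in place of 3, and 6 of 30 listed ubiquitin-like or FAT10 pathway symbols with several models in place of 15, both by construction. If models scoring under 80% of the best were dropped, 2 symbols in place of 4 had a tandem as large as that of UBD, OR1J4 and UBD. The number of UBD models and of models in the array was 4 under every alternative tried for them. Those on start distance, strand, near full coverage and coding length could not change it, given the values of the 4 models described above. Kept pairs of the MHC list were compared as counts and not as shares, although the number of pairs differed. They numbered 54 of 63, 50 with no listed gene allowed between, and 42 of 45 in RefSeq order. With HLA genes left out, an alternative added after seeing the data, they numbered 55 of 59. Models between UBD and GABBR1 could not be counted in RefSeq order, which has no UBD symbol. No paired analysis was possible because no result compares the 2 libraries, which have no replicates. Coverage was taken over target positions, also where models of 1 symbol matched different transcripts, which holds for none of the UBD models. Taken by match length alone, an alternative also added after seeing the data, it gave the same 4 symbols with a tandem as large as that of UBD. Copy number and order rest on assembly and annotation, which no depth measure describes.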
